A study of Mus musculus with 9 samples.

Results

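Imprinted genes are transcribed mainly or solely from the allele inherited from one parent. The 10 imprinted genes described here lie outside the Peg10 locus: Phlda2, Slc22a18 and Kcnq1 of distal chromosome 7, and Igf2r, Grb10, Mest, Peg3, Plagl1, Dlk1 and Impact of other loci. They were chosen by name, with earlier results of these data known. Each was represented by a single probe set with 1 gene symbol, and they are 10 of 19937 genes measured. Total RNA came from a cultured mouse leukaemia line that carries MLL-AF9, a fusion oncogene of acute myeloid leukaemia, together with NrasG12D, of the genetic background B6/SJL(CD45.2), grown in RPMI1640 with 10% fetal bovine serum. In all 3 groups the cells carried the MLL-AF9 and NrasG12D oncogenes and an shRNA delivered by the MSCV-based retroviral vector LMN, and RNA was taken on day 5. The shRNA targeted Renilla luciferase in the control group, Eed in the second group and Suz12 in the third, with 3 arrays each and 9 in all. Separate cultures or transductions are not stated for the arrays of a group, and the p-values below therefore measure array-to-array spread that may be technical.

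Imprinting is set in the germ line, mostly by DNA methylation of an imprinting control region that governs a cluster of genes. EED and SUZ12 are core subunits of Polycomb repressive complex 2 (PRC2), which methylates histone H3 at silenced genes. In the Kcnq1 domain, the long RNA Kcnq1ot1 silences neighbouring genes on the paternal chromosome, and PRC2 and DNA methylation are known to take part to an extent that differs between genes and between placenta and embryo. The arrays measured total RNA of each gene, so the share from each parental allele is not known from these values.

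The promoters of the members are shown first because the distal chromosome 7 genes that rose differ in the base composition of theirs. RefSeq windows of the 250 bases before the transcription start are described for 8 members, 11 windows in all, in the mouse assembly GRCm38.p6. No window is described here for Kcnq1 or Impact. Each sequence reads 5' to 3' along the strand of its gene, and CG dinucleotides, the sites of most DNA methylation in mammals, are in capitals. The Phlda2 window lies at chr7:143502525-143502774 on the minus strand, the Slc22a18 window at chr7:143473539-143473788 on the plus strand, and that of Plagl1, shown as a CG-rich window of a member that was not called, at chr10:13090582-13090831 on the plus strand.
Phlda2: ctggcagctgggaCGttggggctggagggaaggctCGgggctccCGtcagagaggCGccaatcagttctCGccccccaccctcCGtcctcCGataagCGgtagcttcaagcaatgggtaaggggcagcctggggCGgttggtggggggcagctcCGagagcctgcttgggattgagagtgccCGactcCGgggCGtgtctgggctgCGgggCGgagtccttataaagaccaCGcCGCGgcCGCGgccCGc
Slc22a18: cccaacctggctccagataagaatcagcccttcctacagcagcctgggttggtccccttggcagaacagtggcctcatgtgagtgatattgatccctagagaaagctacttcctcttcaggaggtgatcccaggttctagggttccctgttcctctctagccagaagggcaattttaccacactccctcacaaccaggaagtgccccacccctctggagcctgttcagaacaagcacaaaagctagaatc
Plagl1: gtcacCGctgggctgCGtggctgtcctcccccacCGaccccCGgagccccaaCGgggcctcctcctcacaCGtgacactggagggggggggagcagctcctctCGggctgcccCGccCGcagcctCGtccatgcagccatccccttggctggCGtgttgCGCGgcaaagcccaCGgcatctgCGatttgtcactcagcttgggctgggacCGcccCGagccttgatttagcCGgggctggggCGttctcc
The Phlda2 window held 21 CG dinucleotides, and 16.3% of all 32851 promoter windows held at least as many. The Slc22a18 window held 0, as did 7.87% of all windows, and the median window held 6. Plagl1 had 19, Igf2r 27, Peg3 8 and Dlk1 8. Grb10 had a window with 40 and another with 8, and the 3 windows of Mest held 7, 14 and 14. Motifs were searched on both strands. The letters TATAAA stood in 12.4% of all windows and in 1 of the members' windows, that of Phlda2. CACGTG stood in 6.02% of all windows and in 2 of the members' windows, those of Igf2r and Plagl1. GGGCGG stood in 32.7% of all windows and in 7 of the 11 members' windows. All 3 windows of Mest are among these 7, and 2 of the Mest windows share nearly all their bases, so the windows are not independent. These matches describe the letters of the windows, and no measurement of binding or methylation was made here.

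The knockdowns lowered their targets. On the log2 scale of the deposited values, Eed was 10.22 ± 0.07 (SD, n = 3) in the control group and 8.47 ± 0.11 with its own shRNA, and Suz12 was 12.14 ± 0.08 in the control group and 10.16 ± 0.11 with its own. Eed had 2 probe sets, and these values are those of the higher one. Over the other ways of processing, the change of Eed with its own shRNA ran from -1.79 to -0.79. Its limma adjusted p stayed at or below 2.6e-05. All 15 myeloid markers measured had a group mean above the level described next. Of these, 7 were higher and 4 lower with the Eed shRNA, and 6 higher and 4 lower with the Suz12 shRNA. That is 73.3% and 66.7%, beside 31.4% and 30.3% of all genes above that level. Lyz2 changed by 1.01 and 0.94, Itgam by 0.70 and 0.69, Cd33 by 0.68 and 0.74, and Cebpa by -0.73 and -0.82. The mean of the 15, which joins changes in both directions, lay between 11.45 and 11.46 on the control arrays. On the knockdown arrays it lay between 11.54 and 11.59. Of the markers of other cells, 1 of 7 for B cells, 3 of 8 for T and NK cells, 1 of 6 for placental trophoblast, 5 of 9 for fibroblasts and 6 of 7 for erythroid cells were above that level. The mean of the fibroblast markers lay between 6.78 and 6.87 on the control arrays and between 6.93 and 7.01 on the knockdown arrays. In each comparison 2 of those 9 markers rose, Pdgfrb by 0.66 and 0.63 and, below the guide, Postn by 0.28 and 0.23, while the other 7 did not pass. The erythroid mean lay between 7.25 and 7.33 on the control arrays and between 7.36 and 7.41 on the knockdown arrays. Its 7 markers did not move together: 3 were higher and 1 lower with the Eed shRNA, and 2 higher and 1 lower with the Suz12 shRNA. Gata1 changed by 0.69 and 0.68, and Tfrc by -0.17 and -0.19. Over the other ways of processing, the higher erythroid calls numbered 1 to 3 and 1 to 2, and the lower calls 0 to 1 and 1. The first call on Tfrc was lost with cyclic loess (limma adjusted p = 0.0613). It was also lost without control replicate 1 or Eed replicate 2 or 3 (limma adjusted p = 0.0577 to 0.0695). These shifts ran alongside the rises of the members given below, and their part in those rises was not tested. In bulk RNA, more cells of a kind and more RNA per cell cannot be told apart.

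RMA values carry no detection call, so the level of genes expected to be silent served as a guide. For 1027 olfactory receptor genes, the 95th percentile of their mean in the control group was 6.32 on the log2 scale. Phlda2, Slc22a18, Kcnq1, Dlk1 and Impact had group means above this guide, and Igf2r, Grb10, Mest, Peg3 and Plagl1 had all their group means below it. Of all genes, 67.9% were above the guide. A gene was called where limma's moderated test gave a Benjamini-Hochberg adjusted p under 0.05 over all genes.

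With the Eed shRNA, 3 of the 10 members were called higher and 0 lower, and with the Suz12 shRNA 2 were called higher and 0 lower. Over all genes, 21.8% were called with the Eed shRNA and 21.2% with the Suz12 shRNA, so the members' shares of 30% and 20% lie near the background. Higher calls made up 8.78% of all genes and lower calls 13.1% in the first comparison, and 8.25% and 12.9% in the second. Phlda2 and Slc22a18 were called in both comparisons, as were 17.7% of all genes in 1 direction, and Impact was called with the Eed shRNA. Every called member was above the guide, where 31.4% of all genes were called with the Eed shRNA and 30.3% with the Suz12 shRNA. Of the 10 members 0 were called at a change of 1.5-fold or more, a size at which 2.38% and 2.43% of all genes were called. The median change of the members was 0.07 with the Eed shRNA and 0.06 with the Suz12 shRNA, against -0.007 and -0.02 over all genes. With all 10 members, that median moved between 0.02 (median centring) and 0.09 (without control replicate 2) with the Eed shRNA, and between 0.03 (without control replicate 3) and 0.09 (without control replicate 2) with the Suz12 shRNA. Over the 5 members that pass the dim-gene filter it was 0.25 and 0.15. Both comparisons share the control arrays.

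**Figure D1:**
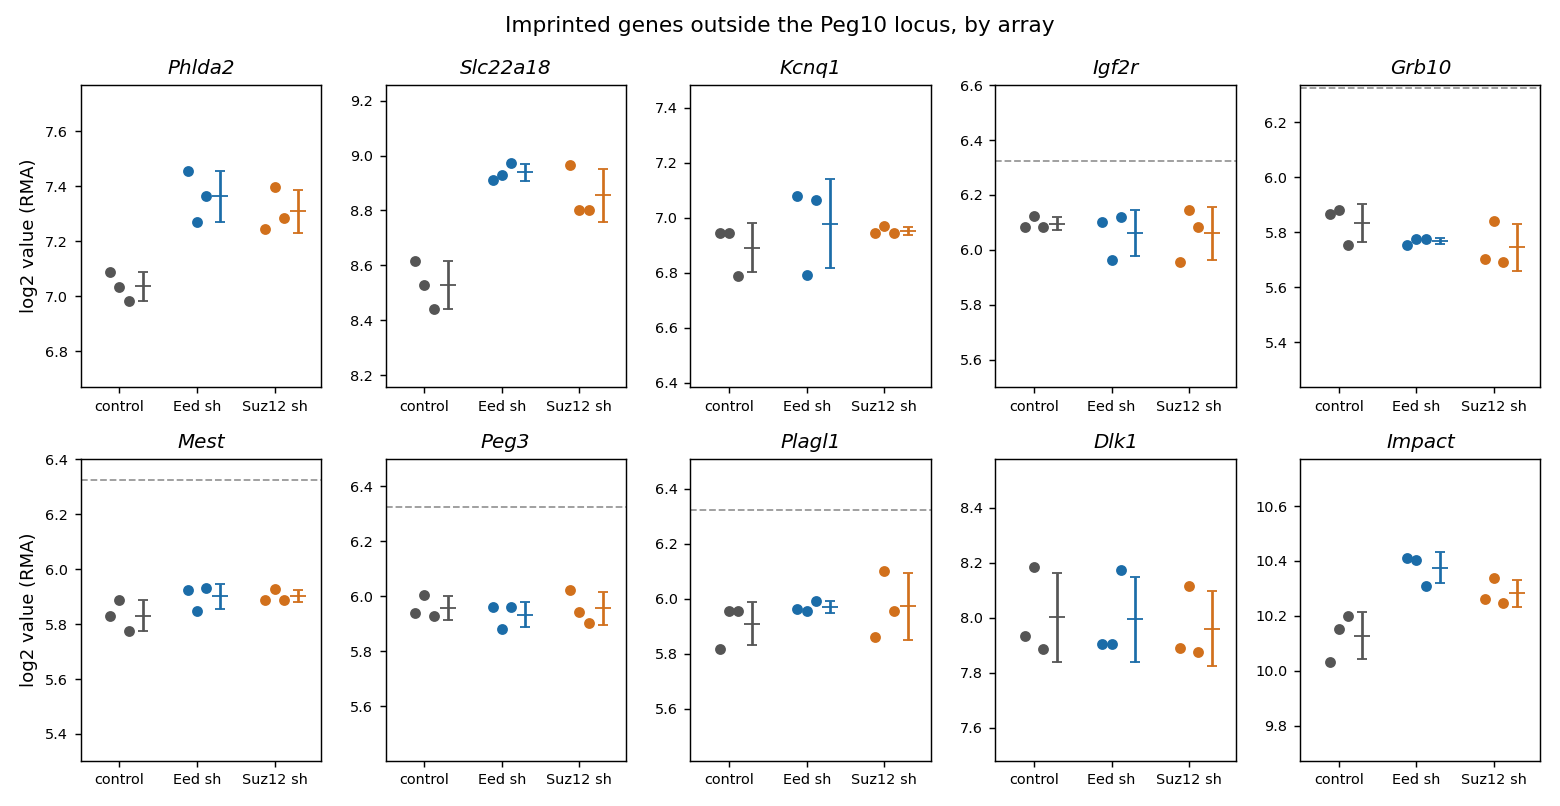
Log2 RMA value (vertical axis, each panel spanning an equal range) of the 10 imprinted genes on each array of the control, Eed shRNA and Suz12 shRNA groups; points are arrays, bars are the group mean ± SD (n = 3), and the dashed line is the 6.32 guide where it falls in the panel. The control arrays of Phlda2, Slc22a18 and Impact lie below every knockdown array, and the points of Igf2r, Mest, Peg3, Plagl1 and Grb10 lie below the guide.

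Slc22a18, a maternally expressed gene for a putative organic cation transporter, showed the largest change of the 10 members in both comparisons. Its control arrays read 8.62, 8.53 and 8.44, its Eed shRNA arrays 8.91, 8.93 and 8.97, and its Suz12 shRNA arrays 8.97, 8.80 and 8.80. All 6 knockdown arrays lay above all 3 control arrays. The rise was 0.41 on the log2 scale with the Eed shRNA, or 1.33-fold (SE 0.06, 95% interval 0.28 to 0.54, limma adjusted p = 0.000656). With the Suz12 shRNA it was 0.33, or 1.25-fold (SE 0.06, 95% interval 0.20 to 0.46, limma adjusted p = 0.0026). Both calls held in all 18 other ways of processing.

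Phlda2 encodes a small protein with a pleckstrin homology domain that restrains placental growth, and like Slc22a18 it is transcribed from the maternal allele. The control arrays read 7.09, 7.03 and 6.98, the Eed shRNA arrays 7.46, 7.27 and 7.37, and the Suz12 shRNA arrays 7.25, 7.40 and 7.28. Again all 6 knockdown arrays were above all control arrays, while the knockdown groups overlapped each other. Phlda2 rose by 0.33 with the Eed shRNA, or 1.26-fold (SE 0.06, 95% interval 0.20 to 0.46, limma adjusted p = 0.00227). The rise with the Suz12 shRNA was 0.27, or 1.21-fold (SE 0.06, 95% interval 0.14 to 0.40, limma adjusted p = 0.00681).

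Kcnq1, the voltage-gated potassium channel subunit whose intron holds the start of Kcnq1ot1, was not called. Its control arrays read 6.94, 6.94 and 6.79, its Eed shRNA arrays 7.08, 6.79 and 7.07, and its Suz12 shRNA arrays 6.94, 6.97 and 6.94. The groups overlapped, and an Eed shRNA array was as low as the lowest control array. The change was 0.09 with the Eed shRNA (95% interval -0.08 to 0.25, limma adjusted p = 0.53) and 0.06 with the Suz12 shRNA (95% interval -0.11 to 0.23, limma adjusted p = 0.681). Without Eed replicate 2, the low array, the first change of Kcnq1 was 0.18 (limma adjusted p = 0.0536), and over all the other ways of processing it ran from 0.04 to 0.18, with an adjusted p from 0.0536 to 0.862. The second change was 0.008 without control replicate 3. Whether Kcnq1 responded differently from Slc22a18 or Phlda2 was not tested.

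Impact, a paternally expressed gene on chromosome 18 whose product restrains the translational stress kinase GCN2, rose with the Eed shRNA. The control arrays read 10.03, 10.15 and 10.20, the Eed shRNA arrays 10.41, 10.40 and 10.31, and the Suz12 shRNA arrays 10.26, 10.34 and 10.25. All knockdown arrays exceeded all control arrays, so the groups did not overlap in either comparison. The change with the Eed shRNA was 0.25, or 1.19-fold (SE 0.05, 95% interval 0.13 to 0.37, limma adjusted p = 0.00668). With the Suz12 shRNA it was 0.15, or 1.11-fold (SE 0.05, 95% interval 0.04 to 0.27), and the limma adjusted p of 0.0681 did not pass. That adjusted p ran from 0.0198 to 0.22 over the other ways of processing, and without control replicate 3 Impact was called at 0.19 (limma adjusted p = 0.047).

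Dlk1, the paternally expressed gene for a transmembrane protein related to Notch ligands, varied as much within groups as between them. The control arrays read 7.93, 8.18 and 7.88, the Eed shRNA arrays 7.90, 7.90 and 8.17, and the Suz12 shRNA arrays 7.89, 8.12 and 7.87. Each group held 1 array clearly above its other arrays, and the groups overlapped. The change was -0.01 with the Eed shRNA (95% interval -0.23 to 0.22, limma adjusted p = 0.977) and -0.04 with the Suz12 shRNA (95% interval -0.26 to 0.18, limma adjusted p = 0.854). Its SE of 0.10 was the largest among the members.

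The other 5 members stayed below the guide on every array, with values between 5.69 and 6.15, and none was called. Their changes ran from -0.09 to 0.07. Below the guide, 1.5% of all genes were called with the Eed shRNA and 1.89% with the Suz12 shRNA.

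Among these 5, a pair restrains growth signals. Igf2r, the maternally expressed receptor that clears IGF2, read 6.08, 6.12 and 6.08 on the control arrays, 6.10, 5.96 and 6.12 with the Eed shRNA, and 5.96, 6.15 and 6.08 with the Suz12 shRNA. Its change was -0.03 in both comparisons (limma adjusted p = 0.779 and 0.768), and the groups overlapped. Grb10, an adaptor that restrains insulin and IGF1 receptor signalling, read 5.87, 5.88 and 5.75 on the control arrays, 5.75, 5.77 and 5.77 with the Eed shRNA, and 5.70, 5.84 and 5.69 with the Suz12 shRNA. Its change was -0.07 with the Eed shRNA and -0.09 with the Suz12 shRNA (limma adjusted p = 0.471 and 0.298), again with overlapping groups.

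The other three are transcribed from the paternal allele. Mest, which encodes a protein of the alpha/beta hydrolase fold, read 5.83, 5.89 and 5.77 in the control group, 5.92, 5.85 and 5.93 with the Eed shRNA, and 5.89, 5.93 and 5.89 with the Suz12 shRNA. Its change was 0.07 in both comparisons (limma adjusted p = 0.329 and 0.326). Peg3, a zinc finger protein gene, read 5.94, 6.01 and 5.93 in the control group, 5.96, 5.88 and 5.96 with the Eed shRNA, and 6.02, 5.94 and 5.90 with the Suz12 shRNA. The knockdown arrays of Peg3 lay on both sides of its control arrays, and the adjusted p from limma was 0.813 and 0.996. Plagl1, a zinc finger transcription factor gene, read 5.82, 5.96 and 5.96 in the control group, 5.96, 5.95 and 5.99 with the Eed shRNA, and 5.86, 6.10 and 5.96 with the Suz12 shRNA. Its change was 0.06 in both comparisons (limma adjusted p = 0.617 and 0.586). Over the 7 members called in neither comparison, the 95% intervals reached from -0.26 to 0.25.

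**Figure D2:**
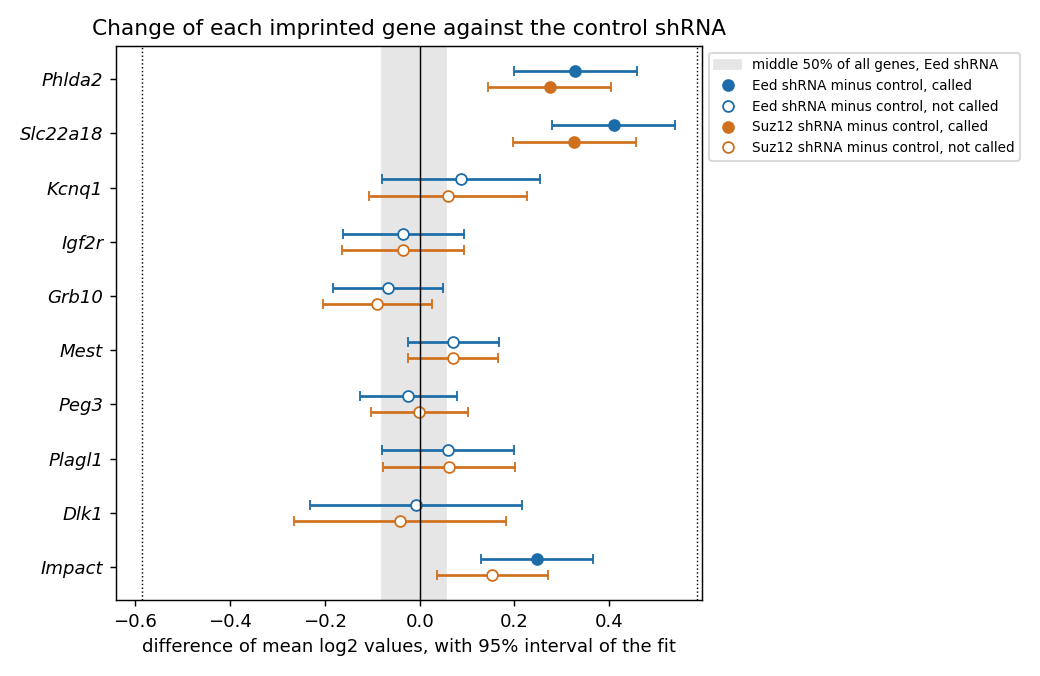
Difference of mean log2 values between each knockdown and the control (horizontal axis) for the 10 imprinted genes, with the 95% interval of the fit; filled points were called, the grey band is the middle 50% of all genes with the Eed shRNA and the dotted lines mark 1.5-fold. Slc22a18 and Phlda2 lie above 0.2 in both comparisons, Impact at 0.25 and 0.15, and the intervals of the other 7 genes include 0.

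The members were next compared between the knockdowns themselves. Between the Suz12 and Eed shRNA groups, 0 of the 10 members were called by limma and 0 had an unadjusted p under 0.05, beside 0.176% of all genes called. The difference, Suz12 shRNA minus Eed shRNA, was -0.08 for Slc22a18 (95% interval -0.21 to 0.05), -0.05 for Phlda2 (-0.18 to 0.07) and -0.09 for Impact (-0.21 to 0.02). Over all 10 members the intervals ran from -0.26 to 0.19, the widest being that of Dlk1. Arrays of the knockdown groups did not overlap for 0 members and for 10.1% of all genes. Arrays of a knockdown and the control did not overlap for the same number of members, 3, in each comparison, and for 32.2% and 31.8% of all genes. Over the 3 groups together, limma's moderated F test called Slc22a18 (adjusted p = 0.00127), Phlda2 (adjusted p = 0.0041) and Impact (adjusted p = 0.0175), beside 21.1% of all genes.

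On distal chromosome 7, calls were mixed along the chromosome rather than in 1 direction. In the order of the reference gene table, Cdkn1c lies between Kcnq1 and Slc22a18, and Phlda2 is followed by Nap1l4, Cars and genes of the TNF receptor superfamily. Cdkn1c, a maternally expressed CDK inhibitor gene, read 7.58, 7.43 and 7.47 on the control arrays, 7.80, 7.65 and 7.65 with the Eed shRNA, and 7.85, 7.79 and 7.62 with the Suz12 shRNA. Its knockdown arrays were all above its control arrays. The change of Cdkn1c was 0.20 with the Eed shRNA (limma adjusted p = 0.0641) and 0.26 with the Suz12 shRNA (limma adjusted p = 0.0241). Without control replicate 2 or 3, or Suz12 replicate 1 or 2, the adjusted p of Cdkn1c from limma in the second comparison lay between 0.0741 and 0.0918, and without control replicate 1 or Suz12 replicate 3 the first comparison passed (0.0486 and 0.0381). Quantile normalization also ended the second call on Cdkn1c (0.22, limma adjusted p = 0.0694). Nap1l4, a histone chaperone gene next to Phlda2, changed by -0.06 and -0.03 and was not called. Cars, the gene for cysteinyl-tRNA synthetase, fell by 0.38 with the Eed shRNA and 0.35 with the Suz12 shRNA. Beyond it, Tnfrsf26 rose by 0.95 and 0.88, from 10.39, 10.57 and 10.58 on the control arrays to between 11.36 and 11.51 on the knockdown arrays. Tnfrsf23 rose by 1.25 and 1.23, and Tnfrsf22 fell by 0.39 in both comparisons. Tnfrsf22, Tnfrsf23 and Tnfrsf26 are close paralogs, and how their probes divide the signal was not tested.

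**Figure D3:**
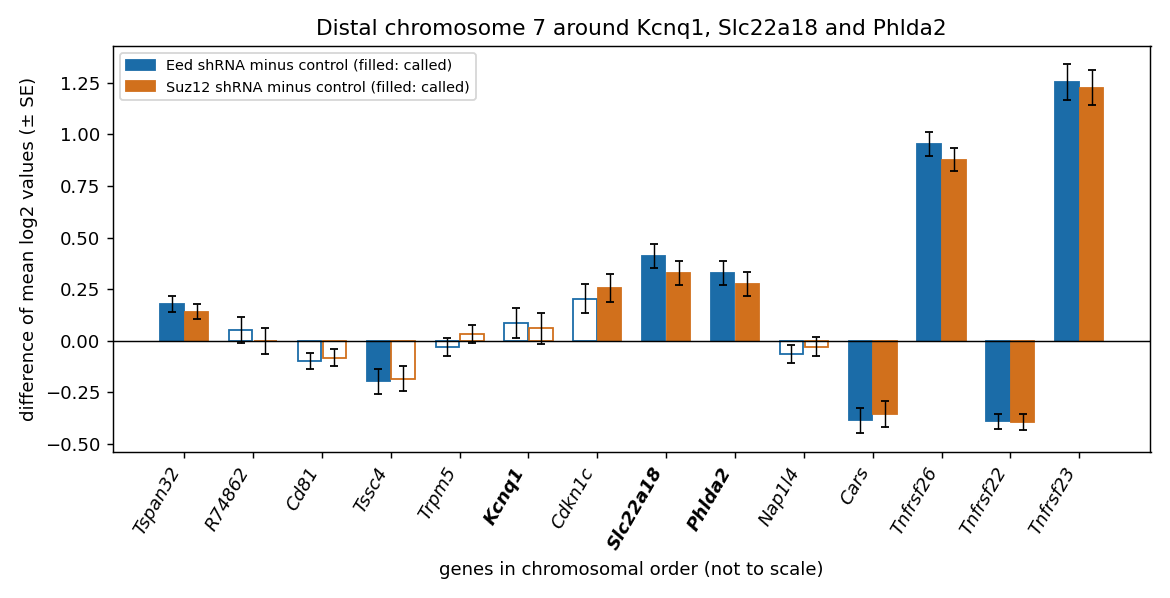
Difference of mean log2 values from the control (vertical axis, ± SE of the fit) for 14 measured genes in chromosomal order around the members Kcnq1, Slc22a18 and Phlda2 (bold), with bars starting at 0 and filled where called. Slc22a18 and Phlda2 rose in both comparisons, Nap1l4 beside them was not called, Cars and Tnfrsf22 fell, and Tnfrsf26 and Tnfrsf23 rose most.

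Up to 5 measured genes on each side of each member gave 81 neighbours that are not members. With the Eed shRNA 10 were higher and 10 lower, and with the Suz12 shRNA 11 were higher and 9 lower, 24.7% in each against the background of 21.8% and 21.2%. Neighbours called in both comparisons at 1.5-fold or more were Tnfrsf26, Tnfrsf23, Plek and Hrh4. Plek, which encodes the platelet and leukocyte protein pleckstrin and lies near Grb10, rose by 0.74 and 0.71. Hrh4, the histamine H4 receptor gene near Impact, read 5.67, 5.46 and 5.79 on the control arrays and between 6.59 and 6.84 on the knockdown arrays. The rise of Hrh4 was 1.09 with the Eed shRNA and 1.03 with the Suz12 shRNA, from a control level below the guide. Of the 10 neighbours of Mest, 0 were called by limma in either comparison. Around Dlk1, Wars, the gene for tryptophanyl-tRNA synthetase, fell by 0.15 and 0.18 and was the 1 neighbour of 10 called, named after its value was seen.

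Beside the members, 50 of 63 other imprinted genes listed from general knowledge were measured, 30 of them above the guide. With the Eed shRNA 6 were higher, 4 lower and 40 not called, and with the Suz12 shRNA 7 were higher, 3 lower and 40 not called, so that 20% were called in each. Their median change was -0.0004 and 0.009. Over the other ways of processing, the higher calls numbered 5 to 9 and 4 to 8, and the lower calls 1 to 4 and 1 to 5.

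By domain, the members' imprinted neighbours were called in few places. In the Kcnq1 domain and the adjoining H19-Igf2 region, 12 of 14 genes were measured, and H19 and Kcnq1ot1 were not analysed here. The Eed shRNA gave 1 higher, Tspan32, and 3 lower, Ascl2, Tssc4 and Dhcr7, and the Suz12 shRNA gave 2 higher, Tspan32 and Cdkn1c, and 2 lower, Ascl2 and Dhcr7, where Tssc4 is named after its value was seen. Ascl2, a trophoblast transcription factor gene, changed by -0.23 and -0.26 (limma adjusted p = 0.0494 and 0.0269), and leaving out any control array ended both calls (0.0815 to 0.148 and 0.0502 to 0.0908), as did leaving out any Eed array or Suz12 replicate 3 for the first and Suz12 replicate 2 or 3 for the second. Cyclic loess ended the first call on Ascl2 as well (0.0632). The calls on Dhcr7, a cholesterol synthesis gene at -0.14 in both, were also lost without control replicate 1 (limma adjusted p = 0.0853 and 0.0867) or 2 (0.114 and 0.115), and without most of the knockdown arrays. They were lost too with cyclic loess, where Dhcr7 changed by -0.09 in both (0.227 and 0.235), and with quantile normalization (0.145 and 0.137). Tspan32, a tetraspanin gene, rose by 0.18 and 0.14, and leaving out replicate 1 or 2 of the control or replicate 1 or 3 of the Suz12 group ended its call in the second comparison (limma adjusted p = 0.058 to 0.0754), as did median centring (0.12, limma adjusted p = 0.0909). Igf2, the fetal growth factor gene, changed by -0.01 and -0.09 and was not called.

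In the domains of Igf2r, Grb10, Mest, Peg3 and Dlk1, where the members were not called, 0 of the other 2, 2, 3, 2 and 4 measured genes were called by limma in either comparison. They included Airn, the long RNA of the Igf2r domain, at 0.06 and 0.02, and Meg3, the long RNA of the Dlk1 domain, at 0.04 and -0.01, both below the guide. Plagl1 was not called either, and no domain was listed for it. Its imprinted neighbour Phactr2, given below with the single loci, was called higher in both comparisons, by 0.58 and 0.96. In the Snrpn domain Atp10a, a phospholipid flippase gene, rose by 0.33 and 0.42 (limma adjusted p = 0.000185 and 4.4e-05), and Ndn, Magel2, Mkrn3 and Peg12 were not called. On chromosome 2, Blcap rose by 0.23 in both comparisons (limma adjusted p = 0.0207 and 0.02), but both calls were lost without control replicate 2 or 3 or without replicate 2 or 3 of the knockdown compared (0.0507 to 0.0777).

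Among 16 measured genes of single imprinted loci, 3 were higher and 1 lower in each comparison. Phactr2, a phosphatase and actin regulator gene that neighbours Plagl1, read 6.76, 7.07 and 7.18 on the control arrays, 7.56, 7.64 and 7.56 with the Eed shRNA, and 8.07, 7.87 and 7.93 with the Suz12 shRNA. It rose by 0.58 and 0.96 (limma adjusted p = 0.00147 and 7.19e-05), and the difference between the knockdowns was not called (limma adjusted p = 0.348). Sfmbt2, a Polycomb-group gene, rose by 0.31 and 0.38, and Qpct, the gene for glutaminyl-peptide cyclotransferase, rose by 0.33 in both. Jade1, whose product is part of a histone acetyltransferase complex, fell by 0.48 in both comparisons. Of 10 measured genes whose imprinting is known to need PRC2 or maternal histone methylation, 2 were higher and 2 lower with the Eed shRNA. With the Suz12 shRNA 3 of them were higher and 2 lower. That is 40% and 50% called, beside 21.8% and 21.2% of all genes. Above the guide, where 6 of these 10 lie, 31.4% and 30.3% of all genes were called. Over the other ways of processing, 2 to 3 were higher and 1 to 2 lower with the Eed shRNA, and 2 to 4 higher and 1 to 3 lower with the Suz12 shRNA. Ascl2, whose calls were lost without single arrays, is among the lower ones.

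The Peg10 locus, an imprinted cluster on chromosome 6, was the contrast to these loci. There 3 of 10 measured genes were higher and 0 lower in each comparison, the same counts as the members had with the Eed shRNA. The sizes were not alike, since Peg10 rose by 2.82 and 2.30 and Sgce by 1.54 and 1.55, while Pon3 rose by 0.35 and 0.32. The difference between the loci was not tested.

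**Figure D4:**
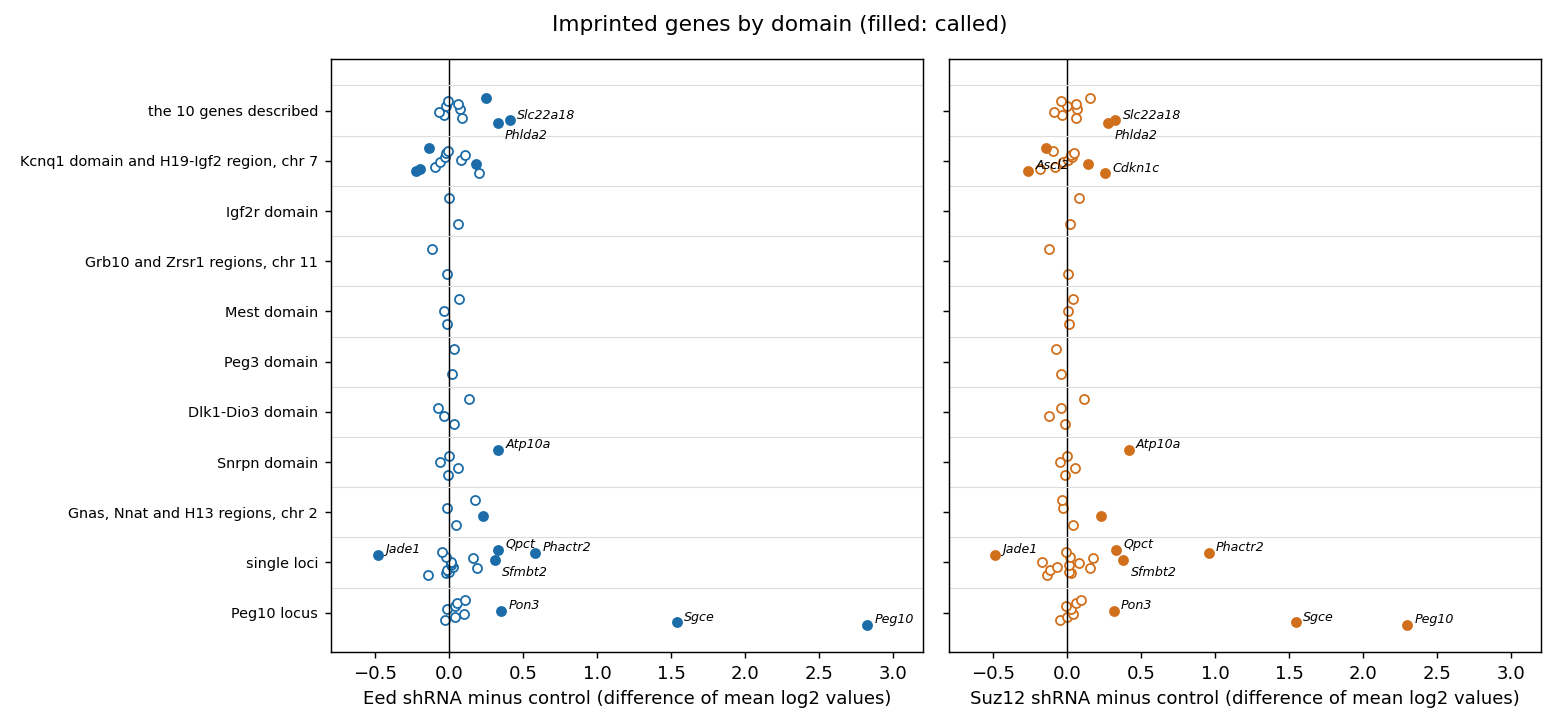
Difference of mean log2 values from the control (horizontal axis; Eed shRNA on the left, Suz12 shRNA on the right) for the measured imprinted genes, 1 point per gene, in rows by domain and filled where called. The 10 genes described lie within 0.5 of 0, as do nearly all other listed imprinted genes outside the Peg10 locus. Peg10 and Sgce lie beyond 1.5. The list leaves out the Tnfrsf genes of distal chromosome 7, which are therefore not shown.

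Relatives of the distal chromosome 7 members Phlda2, Slc22a18 and Kcnq1 were read from the same arrays. Phlda3, a p53-induced relative of Phlda2 that is not imprinted, read 9.66, 9.36 and 9.57 on the control arrays, 10.19, 9.99 and 10.19 with the Eed shRNA, and 10.20, 10.10 and 10.23 with the Suz12 shRNA. It rose by 0.59 and 0.64 (limma adjusted p = 0.000486 and 0.000307). Phlda1 changed by 0.12 and 0.06 and was not called. In the SLC22 transporter family, 12 of 14 genes were measured, and beside Slc22a18 the Eed shRNA gave 1 higher gene, Slc22a17, and the Suz12 shRNA 1 lower gene, Slc22a8. That is 16.7% called in each comparison, beside 21.8% and 21.2% of all genes. In the Kcnq1 channel family with its beta subunits, 1 of 7 measured genes (14.3%) was called, the beta subunit gene Kcne3, higher by 0.35 and 0.30. Without Eed replicate 2 the first of these calls on Kcne3 was lost (limma adjusted p = 0.0594), and without control replicate 2 or any Suz12 replicate the second was lost (0.0537 to 0.108).

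The genes whose pattern over the 9 arrays was most like that of Slc22a18, among 19936 others, were Galnt10, Gm2511, Gata3, Cd37 and Ptges, with Pearson's r from 0.976 to 0.983. Phlda2 had r = 0.85 with Slc22a18. The 9 points share the 3-group structure, so these values are a description.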

How the data were processed

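Total RNA of 9 arrays was biotin-labelled with the Affymetrix whole-transcript kit, per the labels' protocols. The deposited values are log2 values made by the authors with RMA, per the submitters' processing notes. No source used here gives the RMA version or annotation. Values ran from 3.38 to 14.46, with array medians between 6.86 and 6.95, and the number of arrays limits precision.

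Of 34760 probe sets, 21640 carried 1 symbol, 1321 carried several and were left out, and 11799 were unnamed here. By gene number 21553 matched the GRCm38.p6 gene table, which gave names and gene order. For the 954 genes with several probe sets, the one highest on average over the 9 arrays was used. Low values were not filtered.

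Group means were fitted over all 19937 genes with limma 3.58.1 in R 4.3.3 (lmFit, eBayes, 6 residual and 4.11 prior degrees of freedom), with two-sided tests, Benjamini-Hochberg adjustment over all genes and a threshold of 0.05. Intervals are 95% intervals of that fit, and folds are powers of 2 of the changes. The fit was tested on simulated data. Members, lists and markers were chosen with earlier results of these data known, and the lists were written from general knowledge. Named beside the members were the targets, Peg10, Sgce, the Phlda family, up to 4 genes per list called in both comparisons in 1 direction with the largest changes, neighbours called in both at 1.5-fold, and the 5 genes most like the member with the largest change; other names are illustrations chosen after their values were seen. Alternatives were 3 scalings, 2 treatments of probe sets, a filter on dim genes, a replicate block, pairs of groups alone, another variance prior, and leaving out each array.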

Additional observations from a re-analysis of the deposited data

How the results depend on the processing

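The members' counts kept within 1.5 times their values under all alternatives. With the Eed shRNA 3 members were called under all 18, and with the Suz12 shRNA 2 to 3, where Impact joined with cyclic loess (0.21), quantile normalization (0.19), the dim-gene filter (0.15) and without control replicate 3 (0.19). The F test called 2 to 3. Of 525 member values, 521 kept their direction or, where not called, their side of the threshold, 4 became called and 38 uncalled values, none larger than 0.08, changed sign. The dim-gene filter left 5 members. Of 1400 values of 39 other named genes, 78 lost their call, 4 gained one and 0 reversed.

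The replicate numbers did not visibly pair the arrays. Same-numbered arrays correlated between -0.17 and 0.20, 2 of 9 pairs above 0.1, and other pairs between -0.33 and 0.27. Of the 9 arrays 4 correlated best with their own number. With 3 arrays per group, these correlations cannot exclude a pairing. With the number as a replicate block, 3 members were called with the Eed shRNA, 2 with the Suz12 shRNA and 0 between knockdowns, and over all genes 1718 were higher and 2524 lower with the Eed shRNA, against 1750 and 2602 without it. Cdkn1c was called with the Eed shRNA under the block (limma adjusted p = 0.0195, range 0.0195 to 0.227 over alternatives). The split of all calls depended on scaling: with the Eed shRNA 2141 higher and 2089 lower with cyclic loess, and 1379 and 3304 with median centring. Groups of 3 arrays and probe sets below the guide limit what could be detected.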

Other observations

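Factors that maintain imprints moved more often down than up. Of 17 measured, 8 were lower and 1 higher with the Eed shRNA, and 7 lower and 0 higher with the Suz12 shRNA, where 13.1% and 12.9% of all genes were lower. Over the other ways of processing the lower calls numbered 5 to 9 and 5 to 8. Of the 17 factors 16 lie above the guide, where calls were more common. In either direction 52.9% and 41.2% of the factors were called, beside 31.4% and 30.3% of all genes above the guide. With the dim-gene filter, 2818 of 13533 genes were lower with the Eed shRNA and 2792 with the Suz12 shRNA. Uhrf1, which brings the maintenance DNA methyltransferase to newly replicated DNA, fell by 0.29 and 0.24 (limma adjusted p = 0.00196 and 0.00557). Trim28, the corepressor bound by zinc finger proteins at imprinting control regions, fell by 0.20 and 0.19. Ehmt1 and Ehmt2, which encode a pair of histone H3 methyltransferases, fell by 0.22 and 0.28 and by 0.17 and 0.19. Without Eed replicate 1 the first call on Ehmt1 was lost (limma adjusted p = 0.0541), and with cyclic loess that on Ehmt2 (limma adjusted p = 0.054). Zfp57, which recognises methylated imprinting control regions, changed by 0.02 and -0.003 and was not called.

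Among the members, Igf2r and Grb10 act on insulin and IGF signalling, and both lay below the guide and were not called. Of 26 listed genes of that system, 24 were measured. With the Eed shRNA 6 were higher and 2 lower, and with the Suz12 shRNA 5 were higher and 1 lower. That is 33.3% and 25% called, beside 21.8% and 21.2% of all genes, and 31.4% and 30.3% of genes above the guide, where 21 of the 24 lie. Over the other ways of processing, 4 to 7 were higher and 0 to 2 lower with the Eed shRNA, and 4 to 6 higher and 0 to 1 lower with the Suz12 shRNA. Igfbp7, a secreted IGF-binding protein gene, rose by 1.81 and 1.41, Igf1 by 1.29 and 1.34, and the receptor gene Igf1r by 0.57 and 0.52. The difference of Igfbp7 between the knockdowns, Suz12 shRNA minus Eed shRNA, was -0.41 (limma adjusted p = 0.0197). It was called, as were 0.176% of all genes. Igf2bp1, which encodes an mRNA-binding protein, rose by 0.29 and 0.28, but with the mean of its probe sets the change was 0.12 and 0.10 and was not called (limma adjusted p = 0.0911 and 0.171).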
